A study of Mus musculus with 14 samples.

Results

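Uri1, Pop4 and Nudt19 are 3 genes that lie near each other on mouse chromosome 7, outside the known imprinted clusters. They were chosen because at least 1 probe set of each read lower in brains with a paternal duplication of proximal chromosome 7 (PatDp7) than in brains with a maternal one (MatDp7). All probe sets annotated to the 3 genes were taken, which gave 3 of 12393 named genes and 6 of the 22626 probe sets that are not controls: 3 of Uri1, 1 of Pop4 and 2 of Nudt19. All 6 passed the filter on low intensity and were fitted with 13576 probe sets in all.

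Every mouse carried 1 copy of the T9H translocation (T9H/+), which joins parts of chromosomes 7 and 15. MatDp7 mice had the maternal duplication of proximal chromosome 7 together with a paternal duplication of proximal chromosome 15. PatDp7 mice had the reverse of both, so chromosome 7 and chromosome 15 always differ together, and no brain with 1 copy from each parent was among the samples. RNA was measured on 14 arrays, with 2 arrays per duplication in neonatal cortex, neonatal cerebellum and 15.5 dpc brain, and 1 per duplication in 13.5 dpc brain. The labels call the arrays of a group biological replicates and give neither the sex of the mice nor whether tissue was pooled, so errors and p-values measure the spread between these samples only.

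An imprinted gene is read from the copy of 1 parent, so a brain with 2 maternal copies and none from the father lacks the transcripts that only the paternal copy makes, and the reverse holds for a brain with 2 paternal copies. A gene read equally from both copies has the same number of active copies in both kinds of brain. Uri1 encodes URI, a prefoldin-like protein that works in the R2TP chaperone complex, binds an RNA polymerase subunit and takes part in polymerase assembly. Pop4 encodes the Rpp29 subunit shared by ribonuclease P, which trims the 5′ end of precursor transfer RNAs, and ribonuclease MRP, which cuts precursor ribosomal RNA. Nudt19 encodes a peroxisomal Nudix hydrolase that splits coenzyme A and its acyl esters.

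The sequences just before the annotated transcription starts of the 3 genes are shown because the comparison turns on transcripts of these genes. Each is 250 bases upstream of the start from the RefSeq promoter table (GRCm38.p6), read 5′ to 3′ on the minus strand, which all 3 genes use. Capitals mark matches on either strand to the motifs searched: GC box GGGCGG, CRE core TGACGT, ETS core CGGAAG, the CCAAT box, the E-box CACGTG and the TATA box TATAAA.
Nudt19, chr7:35555929-35556178, minus strand: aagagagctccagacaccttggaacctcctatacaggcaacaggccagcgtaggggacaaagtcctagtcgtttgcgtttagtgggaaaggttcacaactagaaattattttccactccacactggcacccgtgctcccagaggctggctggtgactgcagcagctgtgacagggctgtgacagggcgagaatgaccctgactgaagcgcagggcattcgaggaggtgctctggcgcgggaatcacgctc
Uri1, chr7:38019553-38019802, minus strand: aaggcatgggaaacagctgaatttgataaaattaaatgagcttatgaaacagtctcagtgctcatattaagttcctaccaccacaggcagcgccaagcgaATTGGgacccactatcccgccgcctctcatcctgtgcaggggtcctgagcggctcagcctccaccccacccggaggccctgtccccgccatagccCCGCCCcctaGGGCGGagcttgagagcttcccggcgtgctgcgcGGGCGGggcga
Pop4, chr7:38271349-38271598, minus strand: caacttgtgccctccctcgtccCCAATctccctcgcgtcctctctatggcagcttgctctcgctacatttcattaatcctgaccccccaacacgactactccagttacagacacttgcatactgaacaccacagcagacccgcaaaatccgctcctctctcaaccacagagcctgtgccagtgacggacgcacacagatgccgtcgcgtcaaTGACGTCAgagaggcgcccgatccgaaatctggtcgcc

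The Uri1 sequence held 3 GC boxes, a motif found in 32.7% of 32851 RefSeq promoter sequences of the same length. The Pop4 sequence held 2 overlapping CRE cores on opposite strands, a motif found in 6.47% of them. Uri1 and Pop4 each held 1 CCAAT box, found in 33.8%, and the Nudt19 sequence held none of the 6 motifs. The ETS core, the TATA box and the E-box, found in 13.6%, 12.4% and 6.02% of promoters, were in none of the 3 windows. CpG dinucleotides numbered 10 in the Nudt19 sequence, 15 in Uri1 and 17 in Pop4, against a median of 6. Of all promoters 64.4%, 74.6% and 78.3% had as many or fewer, so these counts were not extreme. A match is a description of the letters and not evidence of binding.

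The duplication labels were checked on imprinted genes of proximal chromosome 7. The 5 brightest probe sets of Ndn, a gene read from the paternal copy, ranged from 0.712 to 186 on the 7 MatDp7 arrays and from 5260 to 13700 on the 7 PatDp7 arrays, so all 14 arrays carried the duplication on their label. Summed intensity of 5 cortical markers was 6020 to 8720 in neonatal cortex and 449 to 725 in neonatal cerebellum. The summed 8 cerebellar markers overlapped between the regions, at 7260 to 10100 in cerebellum and 4070 to 10000 in cortex. The 4 neonatal arrays numbered 1 had brighter top signals (43099 to 61172) than the remaining 10 (17662 to 25858). In the 3 replicated tissues Xist, the transcript of X inactivation, read 198 to 437 on arrays numbered 1 and 2880 to 5320 on arrays numbered 2. Both duplications have both numbers in each of these tissues.

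The first question was how each probe set read in the 2 duplications. The members were chosen on this difference, so it is described here without a test. Uri1 probe set 1433913_at read lower in PatDp7 in every tissue. In neonatal cortex it read 504 and 629 in MatDp7 and 234 and 213 in PatDp7. In neonatal cerebellum it read 456 and 715 in MatDp7 and 154 and 251 in PatDp7. In 15.5 dpc brain it read 663 and 537 in MatDp7 and 227 and 231 in PatDp7. The highest PatDp7 array thus lay below the lowest MatDp7 array over the 3 tissues together. In 13.5 dpc brain the single arrays read 539 and 294. The PatDp7 mean was 39.4% of the MatDp7 mean in cortex, 34.5% in cerebellum, 38.1% at 15.5 dpc and 54.5% at 13.5 dpc. Over the 3 replicated tissues the log2 difference, taken after adding a constant of 52.0273 to each intensity, was -1.23 ± 0.154 (SE, 6 arrays against 6).

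The other 2 Uri1 probe sets did not share that pattern. Probe set 1419274_at read 1729 and 859.5 in MatDp7 cortex and 1917 and 1038 in PatDp7 cortex. Its cerebellar values were 1792 and 967 in MatDp7 and 2104 and 862 in PatDp7. At 15.5 dpc it read 821 and 703 in MatDp7 and 987 and 1149 in PatDp7, where both PatDp7 arrays lay above both MatDp7 arrays, as in 15.3% of all probe sets fitted. The 13.5 dpc arrays read 849 and 890.4. The difference was 0.23 ± 0.288, with PatDp7 lower in 1 of 6 pairs of the same tissue and number. Probe set 1419273_at differed by 0.04 ± 0.477 and was lower in PatDp7 in 3 of 6 pairs. It read 859 and 620.0 in MatDp7 and 707 and 869 in PatDp7 at 15.5 dpc, and 865 and 913 at 13.5 dpc, so that the duplications overlapped. Which part of the Uri1 transcript each probe set reads is not given in the sources used here.

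Pop4 has 1 probe set, 1448419_at, which was also lower in PatDp7 in all 4 tissues. In neonatal cortex it read 327 and 490.4 in MatDp7 and 226 and 179 in PatDp7. In neonatal cerebellum it read 359 and 372 in MatDp7 and 149 and 199.8 in PatDp7. In 15.5 dpc brain it read 649.7 and 706 in MatDp7 and 226 and 154 in PatDp7. PatDp7 and MatDp7 arrays again did not overlap over the 3 tissues, and the single 13.5 dpc arrays read 459 and 295. The PatDp7 mean was 49.6% of the MatDp7 mean in cortex, 47.6% in cerebellum, 28.1% at 15.5 dpc and 64.2% at 13.5 dpc. The log2 difference over the 3 replicated tissues was -1.11 ± 0.143 (SE, 6 against 6).

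Nudt19 was lower in PatDp7 by less. Probe set 1434216_a_at read 666 and 1442 in MatDp7 cortex and 460.3 and 811 in PatDp7 cortex. In cerebellum it read 738 and 1192 in MatDp7 and 457 and 848 in PatDp7. In 15.5 dpc brain it read 1357 and 1307 in MatDp7 and 878 and 643 in PatDp7, the one tissue with 2 arrays each in which the duplications did not overlap. Both PatDp7 arrays lay below both MatDp7 arrays at 15.5 dpc for 12.2% of all probe sets fitted and for 4 of the 6 members. The members were chosen on this direction, so nothing is read from that count. In cortex and cerebellum the PatDp7 array numbered 2 lay above the MatDp7 array numbered 1, while each pair of the same number had PatDp7 lower, at 49.2% to 71.2% of MatDp7 over the 6 pairs. The log2 difference was -0.66 ± 0.252.

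The second Nudt19 probe set, 1432332_a_at, read 454 and 961 in MatDp7 cortex and 466 and 708 in PatDp7 cortex. In cerebellum it read 527 and 925 in MatDp7 and 370.3 and 654 in PatDp7, and at 15.5 dpc 869.5 and 854 in MatDp7 and 589 and 547 in PatDp7. The difference was -0.40 ± 0.231, with PatDp7 lower in 5 of 6 pairs and at 102% of MatDp7 in the sixth, cortex array 1. In 13.5 dpc brain neither Nudt19 probe set was lower in PatDp7: the arrays read 766 in MatDp7 and 810.1 in PatDp7 for the first, and 388 and 427 for the second. At that age the PatDp7 array was the lower for 2 of the 6 members and for 55.4% of all probe sets fitted.

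**Figure D1:**
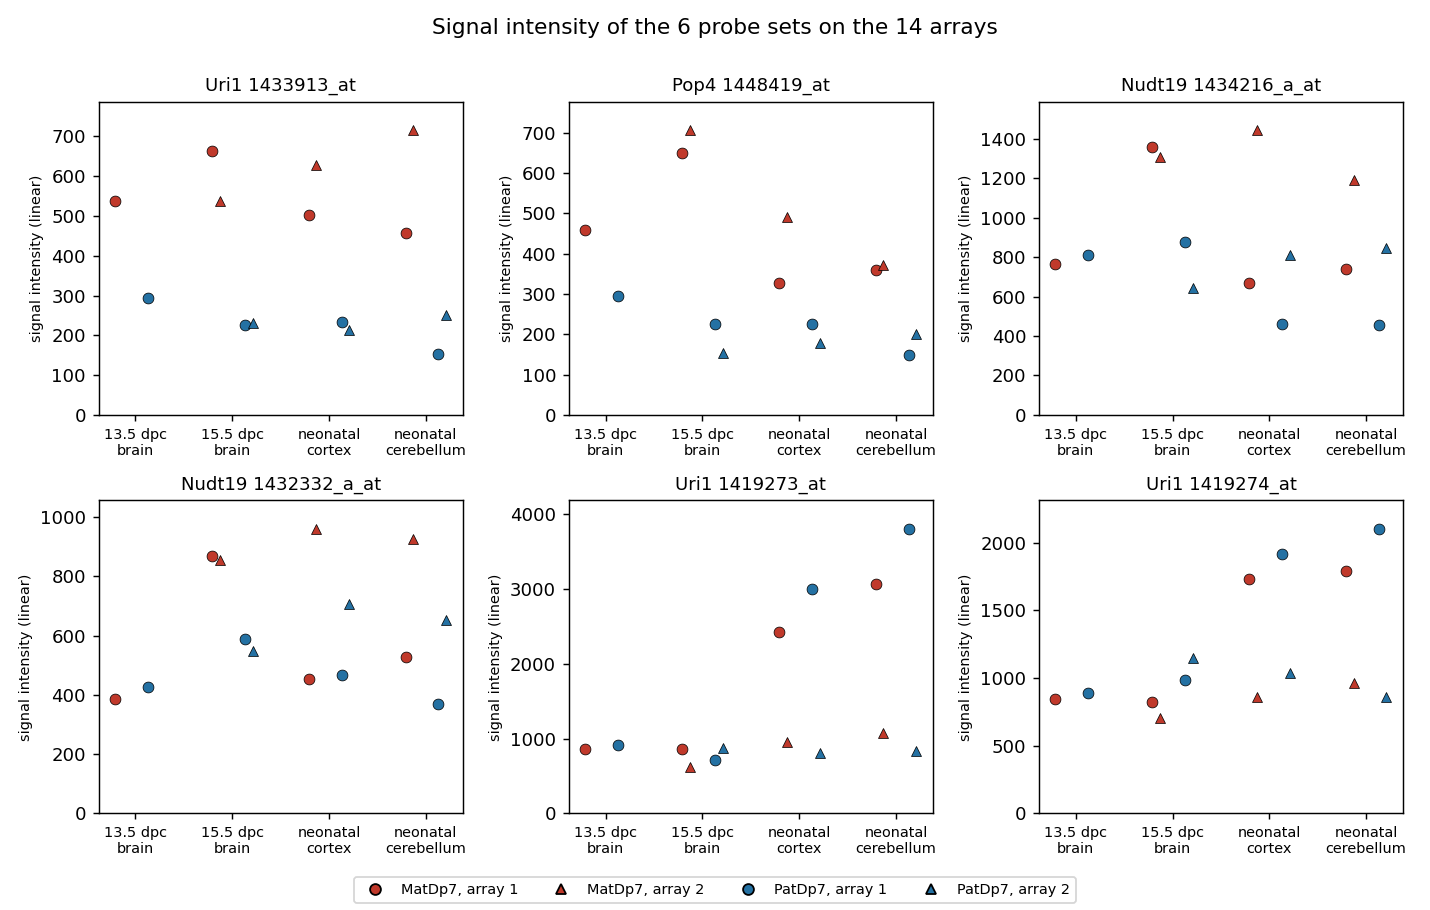
Linear signal intensity (y axis, from 0) of the 6 probe sets on all 14 arrays by tissue, with MatDp7 in red, PatDp7 in blue, circles for arrays numbered 1 and triangles for arrays numbered 2. Uri1 1433913_at and Pop4 have all PatDp7 points of the 3 replicated tissues below all MatDp7 points, while Uri1 1419273_at and 1419274_at are parted by array number in the neonatal tissues.

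Among all 13576 probe sets fitted, 9 (0.0663%) had all 6 PatDp7 arrays of the replicated tissues below all 6 MatDp7 arrays, and 2 of the 6 member probe sets were among them. The rule used this contrast, so nothing is read from that share. The other 7, named after their values were seen, were 2 probe sets of C230091D08Rik (-1.77 and -1.31), 1 of Ube3a (-1.28), the ubiquitin ligase gene read from the maternal copy in neurons, and 1 each of Exd2 (-0.70), Pigu (-0.66), Macrod1 (-0.33) and Mindy1 (-0.25). PatDp7 was lower in 6 of 6 pairs for 3 members, Uri1 1433913_at, Pop4 and Nudt19 1434216_a_at, and for 2.88% of all probe sets fitted. The rule used this direction too, so nothing is read from that count either. With limma, 5 probe sets (0.0368%) were called lower in PatDp7 at a Benjamini-Hochberg adjusted p under 0.05, and Uri1 1433913_at and Pop4 were 2 of them, in a contrast that the rule used. Nothing is read from these 2 calls, which ended in 8 of the 12 fits without 1 array each. The differences without 1 array were -1.33 to -1.13 for Uri1 1433913_at and -1.20 to -1.03 for Pop4. On chromosome 7 the 5 lowest differences among 812 probe sets of single genes belonged to 2 probe sets of Ube3a (-2.27 and -1.28), Uri1 1433913_at, Pop4 and Nudt19 1434216_a_at. The next was Rps9, a ribosomal protein gene, at -0.65 against -0.66 for Nudt19, so there was no gap below the last member.

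**Figure D2:**
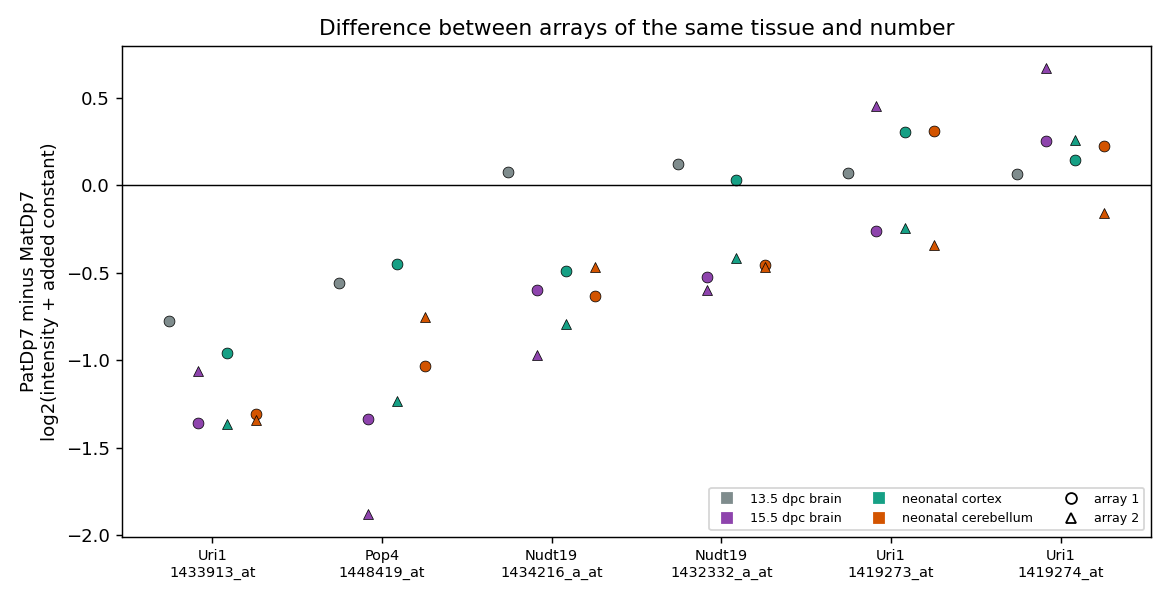
PatDp7 minus MatDp7 in log2(intensity + 52.0273) for each pair of arrays of the same tissue and number (y axis), by probe set (x axis), coloured by tissue, with circles for array 1 and triangles for array 2. Values run from -0.96 to -1.37 for Uri1 1433913_at and from -0.45 to -1.88 for Pop4 in the replicated tissues, and both Nudt19 points at 13.5 dpc lie above 0.

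Whether the difference between the duplications varied between the 3 replicated tissues was tested with a limma F-test, which the rule did not use. It called 0 of the 6 member probe sets and 0 of all 13576 (0%), with 0 and 67 at an unadjusted p under 0.05. Pop4 had the widest range, at -0.84 ± 0.248 in cortex, -0.89 ± 0.248 in cerebellum and -1.61 ± 0.248 at 15.5 dpc, and did not pass (limma F-test, adjusted p = 1). Uri1 1433913_at differed by -1.16, -1.32 and -1.21, each ± 0.268, in the same order (F-test adjusted p = 1). Nudt19 1434216_a_at differed by -0.64, -0.55 and -0.78, each ± 0.436 (F-test adjusted p = 1).

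Correlations between members describe how far their values ran together. After the mean of the 2 arrays of each tissue and number was removed, the correlation over 14 arrays in 7 pairs was 0.926 between Uri1 1433913_at and Pop4, 0.955 between Pop4 and Nudt19 1434216_a_at, and 0.913 between Uri1 1433913_at and Nudt19 1434216_a_at. The same measure was -0.863 between Pop4 and Uri1 1419274_at, and -0.649 between the latter and Uri1 1433913_at. Probe sets chosen for the same direction between the duplications must correlate on this measure, so nothing is read from these values. Without removing the pair means, Uri1 1433913_at and Pop4 correlated at 0.892, the 2 Nudt19 probe sets at 0.861, and Uri1 1419273_at and 1419274_at at 0.952, while 1433913_at correlated with those 2 at -0.222 and -0.415.

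Probe sets of other genes that were most like the members were found in the same way. For Uri1 1433913_at over the 14 arrays they were C230091D08Rik 1438695_at (r = 0.92), Ywhaz 1416103_at (0.852) and C230091D08Rik 1437354_at (0.846). Pop4 had the same 3, at 0.848, 0.79 and 0.788. For Nudt19 1434216_a_at they were Pdhb (0.912), Glo1 (0.892) and Ppp5c (0.888), and for Nudt19 1432332_a_at Ube2e3 (0.919), Atp6v0d1 (0.906) and Pkia (0.906). Uri1 1419273_at was most like Styx, Homer2 and Csnk2a2 (0.988, 0.986 and 0.985), and Uri1 1419274_at most like Zfp91, Nab1 and Ankrd17 (0.983, 0.98 and 0.978).

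With the pair means removed, Pop4 was most like Ppp5c, Ints7 and Mtch2 (0.993, 0.958 and 0.949), whose differences between the duplications were -0.31, -0.26 and -0.15. Uri1 1433913_at was most like Glo1, C230091D08Rik 1438695_at and Cct6a (0.972, 0.969 and 0.966). Nudt19 1434216_a_at was most like Hbp1, F2r and Ppp5c (0.964, 0.964 and 0.957), and Nudt19 1432332_a_at most like Top2b, Aldh6a1 and F2r (0.962, 0.946 and 0.946). Uri1 1419273_at was most like Npnt, Vldlr and Pgls (0.959, 0.951 and 0.941), and Uri1 1419274_at most like Cxcl16, Ctr9 and Sptlc1 (0.96, 0.956 and 0.951). Correlation takes no account of size, and the highest of 13576 values is high in any such search.

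Among the 25 genes before Nudt19 and those between Uri1 and Pop4 on chromosome 7, no fitted gene was called between the duplications. In the order of the GRCm38.p6 gene table, the window from 25 genes before Nudt19 to 25 after Pop4 held 12 other genes with a probe set, of which 8 genes with 10 probe sets were fitted. No gene after Pop4 in the window had a probe set of its own. Between Nudt19 and Uri1 only Ankrd27 had one, too dim to be fitted, so these 2 stretches were not measured. Of these 10 probe sets, 0 were called (0.133% of all probe sets were called in either direction), and they lay between -0.14 and 0.33. Ccne1, the cyclin E1 gene next to Uri1 among the measured genes, differed by 0.33 ± 0.232 (limma adjusted p = 1). Plekhf1, the measured neighbour of Pop4, differed by 0.11 ± 0.154 and 1600014C10Rik by -0.08 ± 0.172 (limma adjusted p = 1 for each). On the far side of Nudt19, Cep89, a centrosomal protein gene, differed by -0.14 ± 0.13 and Cebpg, a bZIP factor gene, by 0.27 ± 0.117 (limma adjusted p = 1 for each). The 8 probe sets too dim to be fitted with the rest, those of Cebpa, Slc7a9, Ankrd27 and Rhpn2 among them, had means of 23.9 to 127 in MatDp7.

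**Figure D3:**
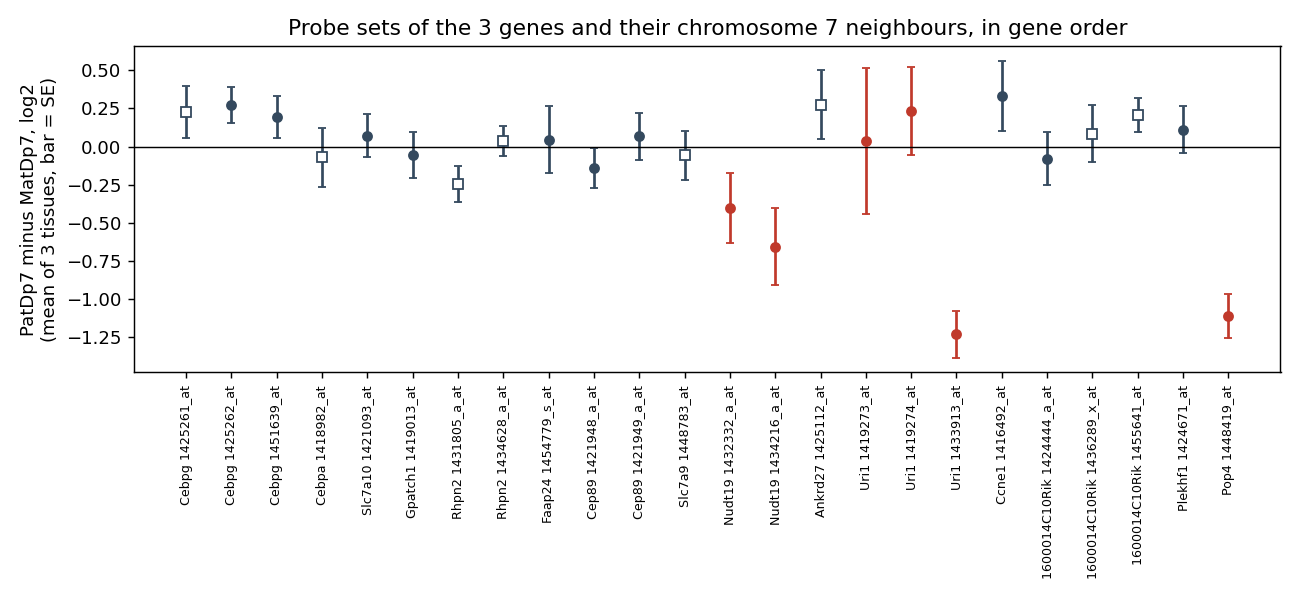
PatDp7 minus MatDp7 (y axis, log2, mean of the 3 replicated tissues, bars are SE) for the probe sets of the 3 genes (red) and of the neighbouring genes on the array (dark, open squares where too dim for the filter), in gene order along chromosome 7. Apart from the red points at -0.40, -0.66, -1.23 and -1.11, the filled points lie between -0.14 and 0.33.

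Partners of the 3 proteins were compared in the same way, with 1 probe set per gene. Of 13 fitted genes of the prefoldin-like and R2TP partners of URI, 0 were called between the duplications, with a median of -0.07 against 0 over all probe sets and 12 of 13 below 0. The largest were Pih1d1, an R2TP subunit, at -0.45 ± 0.33, and the prefoldin genes Vbp1 (-0.31 ± 0.275) and Pfdn5 (-0.30 ± 0.262). The other 6 fitted subunits of ribonuclease P and MRP lay between -0.12 for Rpp21 and 0.15 for Rpp14, with 0 called and a median of -0.06. Of 13 other Nudix genes 0 were called, with Nudt2, which splits diadenosine tetraphosphate, at -0.33 ± 0.202 and a median of -0.05. Of 11 peroxisomal acyl-CoA genes 0 were called. Acaa1a, a thiolase of peroxisomal fatty acid breakdown, had the smallest p and differed by 0.51 ± 0.115 (limma adjusted p = 0.864). Of 2 mitochondrial transfer RNA processing genes 0 were called. Over these 5 lists and the neighbours, 2 representative probe sets had an unadjusted p under 0.05 with limma, Acaa1a and Cebpg, both higher in PatDp7. Of all probe sets fitted 1.43% did, and nothing is read from these 2.

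Markers of other cell types were read beside the difference between the duplications. All 5 meningeal markers, collagens among them, were lower in PatDp7 on average over the 3 replicated tissues, with a median of -0.43 and 0 called. Ranges of summed intensity here cover these 3 tissues unless a tissue is named. The meningeal sum was 5220 to 9500 in MatDp7 and 2970 to 11200 in PatDp7. In cortex it was 5220 to 9500 in MatDp7 and 3180 to 6310 in PatDp7. In cerebellum it was 8120 to 8710 and 2970 to 5480, and at 15.5 dpc 8890 to 8900 and 11000 to 11200. Of the 4 blood markers measured, 3 were fitted and had a median of 0.31, with 0 called and sums of 333 to 4280 in MatDp7 and 489 to 7760 in PatDp7. Microglial markers summed to 2200 to 2850 in MatDp7 and 2580 to 3440 in PatDp7, with 0 of 4 called. At 15.5 dpc astrocyte markers summed to 2230 to 2270 in MatDp7 and 1730 to 1840 in PatDp7. Oligodendrocyte lineage markers were also lower in PatDp7 there (2240 to 2770 and 1760 to 2030). Cerebellar (5310 to 5590 and 5880 to 6330), microglial (2200 to 2490 and 3010 to 3050) and endothelial markers (1990 to 2350 and 2400 to 2910) were higher. The sums of cortex, neuron, blood and choroid plexus markers overlapped at that age. Of the fitted markers of cortex, cerebellum, neurons, astrocytes, the oligodendrocyte lineage, choroid plexus and endothelium 0 were called either, and no fitted marker of these 10 lists had an unadjusted p under 0.05 with limma. The part of these cells in the members' values was not tested. In bulk tissue fewer cells of a type and less RNA per cell cannot be told apart.

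The second question, which the choice of members did not use, was how their levels differed between tissues and ages, over both duplications. With limma, 0 of 6 member probe sets were called between neonatal cortex and cerebellum, where 0.368% of all probe sets were called. Between cortex and 15.5 dpc brain 0 of 6 were called (background 5.63%), between cerebellum and 15.5 dpc brain 0 of 6 (7.38%), and between 15.5 and 13.5 dpc brain 0 of 6 (5.04%). At an unadjusted p under 0.05 these counts were 0, 0, 1 and 0 of 6, against 7.4%, 26.7%, 26.0% and 18.9% of all probe sets. The one was Pop4, at -0.45 ± 0.176 in cerebellum against 15.5 dpc brain (limma, adjusted p = 0.15). The counts depended on which neonatal arrays were used. With those numbered 1 alone limma called 0, 4, 4 and 1 of 6, against 0.884%, 42.2%, 37.4% and 16.5% of all probe sets, and with those numbered 2 alone 0, 0, 0 and 1 of 6, against 0.435%, 8.34%, 9.54% and 16.8%.

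The mean of Pop4 was highest at 15.5 dpc, at 434 ± 284 (SD, n = 4), then 377 ± 116 at 13.5 dpc (n = 2), 305 ± 138 in cortex (n = 4) and 270.0 ± 113 in cerebellum (n = 4), and these SDs hold the difference between the duplications. No neighbouring pair in that order differed beyond these SDs, which cannot decide the order because they hold that difference. On the log2 scale Pop4 differed by -0.01 ± 0.215 between 15.5 and 13.5 dpc, so the higher mean intensity at 15.5 dpc was not seen there. In MatDp7 alone the 15.5 dpc arrays, at 649.7 and 706, lay above all 5 other MatDp7 arrays, which read 327 to 490.4. How many of all probe sets did so was not counted, so nothing particular to Pop4 is read from it. In PatDp7 the 15.5 dpc arrays, at 226 and 154, overlapped the neonatal ones, which read 149 to 226. The single PatDp7 array at 13.5 dpc, at 295, lay above all of these.

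Uri1 1433913_at had nearly the same mean in the 4 tissues, at 416 ± 173 at 13.5 dpc (n = 2), 414 ± 220 at 15.5 dpc, 395 ± 205 in cortex and 394 ± 249 in cerebellum (n = 4 each). Its differences between cortex and cerebellum, cortex and 15.5 dpc, and 15.5 and 13.5 dpc were 0.06 ± 0.189, -0.05 ± 0.189 and -0.08 ± 0.232 on the log2 scale. Nudt19 1432332_a_at was lowest at 13.5 dpc, at 407 ± 27.7 (n = 2), against 715 ± 171 at 15.5 dpc, 647 ± 240 in cortex and 619 ± 235 in cerebellum (n = 4 each). Its rise from 13.5 to 15.5 dpc was 0.71 ± 0.346 and did not pass (limma adjusted p = 0.312). Nudt19 1434216_a_at averaged 788 ± 31.4 at 13.5 dpc, 1046 ± 344 at 15.5 dpc, 845 ± 423 in cortex and 809 ± 304 in cerebellum, with 0.33 ± 0.378 between 15.5 and 13.5 dpc (adjusted p = 0.751 with limma). Markers of other cells also differed between these ages. Summed blood markers read 28300 to 34100 at 13.5 dpc and 2430 to 7760 at 15.5 dpc, meningeal markers 34600 to 35100 and 8890 to 11200, and neuronal markers 7730 to 9550 and 19400 to 22500. Their part in the members' differences between ages was not tested.

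The neonatal values of 4 probe sets followed the array number. How many of all probe sets did so was not counted, so this is not read as particular to the members. Uri1 1419273_at read 2422 and 957 on arrays 1 and 2 of MatDp7 cortex and 2998 and 802 in PatDp7 cortex. In cerebellum it read 3062 and 1073 in MatDp7 and 3805 and 837 in PatDp7. Arrays numbered 1 were thus 2.53 to 4.54 times as high as arrays numbered 2, and the 8 neonatal arrays did not overlap by number. Uri1 1419274_at was 1.85 to 2.44 times as high on arrays numbered 1. The Nudt19 probe sets went the other way, with arrays numbered 1 at 0.462 to 0.619 of those numbered 2 for 1434216_a_at and at 0.473 to 0.657 for 1432332_a_at. Uri1 1433913_at (0.613 to 1.1) and Pop4 (0.666 to 1.26) had ratios on both sides of 1.

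The mean difference by number was 1.68 on the log2 scale for Uri1 1419273_at, above 97.6% of all probe sets fitted, and -0.82 for Nudt19 1434216_a_at, at the 6.8th percentile. A difference above 1 in size was found for 10.7% of probe sets and, among the members, for Uri1 1419273_at only. Of the 3 Uri1 probe sets, 1419273_at and 1419274_at moved the same way with the number, at 1.68 and 0.98, and 1433913_at read -0.33. Xist, Uty and the maximum intensity of the array also go with the number, and their part in these values was not tested.

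Neonatal averages of the 4 probe sets therefore rest on 2 unlike sets of arrays. With the 4 neonatal arrays numbered 2 alone, Uri1 1419273_at differed from 15.5 dpc brain by 0.20 in cortex and 0.31 in cerebellum. With those numbered 1 alone the differences were 1.76 ± 0.195 and 2.10 ± 0.195 (limma adjusted p = 0.00093 and 0.000412, with 1 array in each neonatal group, taken to vary like the 15.5 dpc arrays). For Nudt19 1434216_a_at the same pair of values in cortex was 0.11 with arrays numbered 2 and -0.80 ± 0.183 with those numbered 1 (limma adjusted p = 0.0121), so the direction depended on the number. Between the duplications the values with the arrays of either number were -1.16 and -1.30 for Uri1 1433913_at with the neonatal arrays numbered 1 and 2, -1.03 and -1.20 for Pop4, and -0.64 and -0.68 for Nudt19 1434216_a_at, each with all 4 arrays of 15.5 dpc brain. In that contrast, which the rule used, limma called Uri1 1433913_at with either number and Pop4 with neither.

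At most 1 gene of each list was called in any comparison of tissues, and nothing particular to the lists is read from these counts. The share of all probe sets called was 7.38% for cerebellum and 5.63% for cortex against 15.5 dpc brain, and 5.04% between 15.5 and 13.5 dpc. Polr2e, the RNA polymerase subunit that URI binds, was lower in cerebellum than in 15.5 dpc brain (-0.56 ± 0.141, limma adjusted p = 0.0463). It was the 1 called of 13 partner genes, and none of the 12 fits that omitted an array called it. Hsd17b10, a subunit of mitochondrial ribonuclease P, was lower in cortex (-1.21 ± 0.211, limma adjusted p = 0.0207) and in cerebellum (-0.93 ± 0.211, limma adjusted p = 0.034) than at 15.5 dpc, calls that ended in 6 and 9 of the 12 fits. None of the 6 fitted ribonuclease P and MRP subunits was called with limma in the 4 comparisons of tissues, with 2 at an unadjusted p under 0.05 in each comparison of a neonatal region with 15.5 dpc brain, where 26.7% (cortex) and 26.0% (cerebellum) of all probe sets were.

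Nudt1, which clears oxidised nucleotides, was the 1 called of 13 Nudix genes in cortex against 15.5 dpc brain (-0.94 ± 0.22, limma adjusted p = 0.0445), and the call ended in 10 of 12 fits. Acot8, a peroxisomal thioesterase, was the 1 of 11 acyl-CoA genes (-1.02 ± 0.181, limma adjusted p = 0.022), and its call ended in 7 of 12. Of the 8 chromosome 7 neighbours, Cebpg was lower than at 15.5 dpc in cerebellum (-0.87 ± 0.143, limma adjusted p = 0.0118) and in cortex (-0.61 ± 0.143, limma adjusted p = 0.0428), calls that ended in 2 and 12 of 12 fits. Ccne1 was lower at 15.5 than at 13.5 dpc (-1.47 ± 0.347, limma adjusted p = 0.0455), which did not hold in 6 of the 11 fits in which it passed the intensity filter.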

How the data were processed

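RNA was hybridised to Affymetrix GeneChip 430A arrays. The authors deposited signal intensity on a linear scale, and the submitters' processing notes name MAS5 without a version. The trimmed mean, without the outer 2% on each side, lay between 500.13 and 500.15 on every array, so no further scaling was applied. The number of arrays limits the precision. Probe sets were named from the platform annotation (1 gene for 20380, several for 691, none for 1555), and the 64 controls were left out. Values were analysed as log2(intensity + 52.0273), where the constant is their 20th percentile, and probe sets with a mean at or above the 40th percentile were kept in the fits. limma 3.58.1 in R 4.3.3 fitted 1 mean for each of 8 groups to all 14 arrays, with an intensity trend, 6 residual and 3.15 prior degrees of freedom, and Benjamini-Hochberg adjustment over all 13576 probe sets. The 13.5 dpc groups, of 1 array each, are taken to vary like the others. Errors of log2 differences are SE, and those of intensities are SD.

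A gene of a list is represented by its brightest fitted probe set. By rule the text names every member probe set, up to 4 list genes per comparison (called ones between tissues, the largest differences between duplications), and the 3 most similar probe sets of each member. The members and lists were chosen with earlier results of these data known. The gene table's build (GRCm38.p6) is not named by the files, so it gives gene order only. The method was tested on simulated data. Alternatives were 2 other added constants, no filter, quantile normalization, the replicate number as a block, either neonatal number alone and leaving out 1 of 12 arrays at a time. Plots used matplotlib 3.10.9 under Python 3.11.15.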

Additional observations from a re-analysis of the deposited data

Results flagged for a closer look

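Both Nudt19 probe sets had PatDp7 above MatDp7 in 13.5 dpc brain and below it on both arrays in 15.5 dpc brain, so the direction was opposite at the 2 ages. At 13.5 dpc the difference was 0.123 on the log2 scale for 1432332_a_at and 0.076 for 1434216_a_at, with 1 array per duplication. This change of direction was not tested, and both values are smaller than the within-group SD of these probe sets, 0.451 and 0.497.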

How the results depend on the processing

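PatDp7 was lower for Uri1 1433913_at (-1.04 to -1.36), Pop4 (-0.92 to -1.24), Nudt19 1434216_a_at (-0.61 to -0.69) and Nudt19 1432332_a_at (-0.33 to -0.48) under all 8 alternatives that left all groups in place, and in all 12 fits that left out 1 array. Uri1 1419273_at turned negative in 6 of those 12 fits and 1 of the 8. The probe sets called between duplications numbered 18, 14 to 20 with 1 array left out and 32 with the neonatal arrays numbered 1 only. Leaving out 1 array gave 29 to 45 in place of 50 for cortex against cerebellum, 0 to 1081 in place of 764 for cortex against 15.5 dpc brain (0 with limma without 15.5 dpc PatDp7 array 2, where 2601 had an unadjusted p under 0.05), 115 to 1139 in place of 1002 for cerebellum against 15.5 dpc brain, 179 to 759 in place of 684 for 15.5 against 13.5 dpc, and 0 to 1 in place of 0 for the F-test. With the neonatal arrays numbered 1 only these 5 counts were 120, 5726, 5077, 2238 and 1. For 15.5 against 13.5 dpc they were 1087 without the filter and 2287 with the neonatal arrays numbered 2 only.

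Same-numbered arrays deviated together in the 6 pairs of neonatal groups (r of 0.71 to 0.816) and with r of -0.092 to 0.264 in the other 9, and with 2 numbers the labels do not make pairs. With the neonatal replicate block, a term for the number of the 8 neonatal arrays, 465, 5123, 4858, 2824 and 3 probe sets were called in the same order, and with 1 such term over 12 arrays 119, 2643, 2704 and 1593 in the first 4. Between the duplications, the contrast that chose the members, 26 were called with the neonatal block. Nudt19 1434216_a_at was among them (limma adjusted p = 0.0323), but not with the term over 12 arrays (adjusted p = 0.999 with limma), and nothing is read from it. In the other comparisons the neonatal block called 2 of 6 members for cortex against 15.5 dpc brain (37.7% of all probe sets), 4 for cerebellum against 15.5 dpc brain (35.8%) and 1 for 15.5 against 13.5 dpc (20.8%). These were Uri1 1419273_at and 1419274_at, higher in both neonatal regions, Pop4 and Nudt19 1434216_a_at, lower in cerebellum (limma adjusted p = 0.047 and 0.0499), and Nudt19 1432332_a_at, higher at 15.5 dpc (adjusted p = 0.00515 with limma). With the term over 12 arrays only Uri1 1419273_at in cerebellum was called (limma adjusted p = 0.0394), and the other 6 calls were lost (limma adjusted p of 0.0735 to 0.302). The cause of these changes was not tested. No fit without a 13.5 dpc array was run, since that group would be empty.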
